A study of Mus musculus with 6 samples.

Results

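Primary granule genes of myeloid progenitors were followed across 6 RNA-seq libraries of sorted mouse bone marrow cells. The set holds the peroxidase gene Mpo, the serine protease genes Elane, Prtn3, Ctsg and Prss57, and the progenitor markers Ms4a3 and Nkg7. They were chosen by name, with earlier results of these data known. All 7 were found among the 38924 rows of the deposited table, and all 7 were among the 10958 genes tested. The cells came from C57BL/6 mice that had received bone marrow carrying a transduced vector, and they were sorted for GFP, for c-kit and against lineage markers. The 3 groups hold 2 libraries each. Mock cells carried GFP alone and were taken 4 weeks after transplantation, preleukemia cells carried Evi1-GFP at the same 4 weeks, and leukemia cells carried Evi1-GFP at 6 months. Every group thus carries GFP, and no GFP group was given at 6 months, so time and leukemia cannot be told apart. The labels name neither the vector's promoter nor the number of clones in a leukemia. They also leave unsaid if each library is a mouse of its own. The p-values therefore reflect library-to-library spread only, some or all of which may be technical.

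Primary granules, also called azurophil granules, are the first granules made during neutrophil development, at the promyelocyte stage. Granulocyte-monocyte progenitors already transcribe their genes strongly, and transcription stops as cells mature, while the proteins stay stored until the neutrophil meets a microbe. Myeloperoxidase turns hydrogen peroxide and chloride into hypochlorous acid, and the serine proteases cut bacterial and matrix proteins after removal of a short propeptide by cathepsin C. Evi1, encoded by Mecom, is a zinc-finger transcription factor of hematopoietic stem cells whose overexpression marks an aggressive form of myeloid leukemia.

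Levels are given in RPKM, reads scaled by transcript length and by the library's total, so that genes can be compared within a library. Library totals recovered from the table lay between 16922776 and 21641576 reads. At these totals 3 reads on a gene of 1 kb are worth 0.139 to 0.177 RPKM, far under the lowest value of any of the 7 genes, and the smallest recovered read number was 131, for Nkg7 in leukemia library 1. The c-kit gene Kit, used in the sort, was at 46.8 to 69.2 RPKM in all 6 libraries, and was called lower in leukemia against mock (-0.39, adjusted p = 0.0472). The mock pair was the least alike: the median absolute log2 difference between its libraries was 0.22 over all tested genes, against 0.11 in preleukemia and 0.11 in leukemia. All 7 primary granule genes were lower in mock library 2 than in mock library 1, with a median absolute difference of 0.45, and all 7 were higher in preleukemia library 2 than in library 1.

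The genes lie at 5 places in the genome (GRCm38, GENCODE M21), all protein coding. Elane is on chromosome 10 at 79886247 to 79888215, 3.07 kb beyond the end of Prtn3 at 79874476 to 79883174, both on the plus strand. Prss57 lies on the same chromosome at 79781474 to 79790961 on the minus strand. Mpo is on chromosome 11 at 87793581 to 87804413, Ctsg on chromosome 14 at 56099881 to 56102574, Ms4a3 on chromosome 19 at 11629496 to 11640851 and Nkg7 on chromosome 7 at 43437073 to 43438249. Exons of Prss57 share 1157 of 2843 bases with Fstl3, and those of Mpo share 512 of 3424 bases with the antisense gene Gm11505. The kit's name points to an unstranded protocol, and reads from shared bases cannot be assigned to 1 gene. Fstl3 itself was listed at 0.506 to 1.40 RPKM and Gm11505 at 0 to 1.07.

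Promoters of 6 of the 7 genes were found in the RefSeq promoter table (GRCm38.p6), and the 250 bases before the start were searched on both strands. The stretches of 3 protease genes that lie outside annotated exons are shown, because Elane, Prtn3 and Ctsg moved in the same direction in the comparisons that follow. Ms4a3, which is not a protease gene, moved in these directions too and is not shown. The Prtn3 stretch lies inside the gene span given above, since the RefSeq start used here lies beyond the GENCODE start. Capitals mark GGAAGT, a core bound by the ETS factor PU.1, and CAACNG, a MYB core, where they lie within the printed stretch.
Elane (chr10:79886062-79886246, plus strand): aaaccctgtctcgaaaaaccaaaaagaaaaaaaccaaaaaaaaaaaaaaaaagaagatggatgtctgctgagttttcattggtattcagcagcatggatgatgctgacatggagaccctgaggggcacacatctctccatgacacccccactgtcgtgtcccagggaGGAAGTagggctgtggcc
Prtn3 (chr10:79879417-79879613, plus strand): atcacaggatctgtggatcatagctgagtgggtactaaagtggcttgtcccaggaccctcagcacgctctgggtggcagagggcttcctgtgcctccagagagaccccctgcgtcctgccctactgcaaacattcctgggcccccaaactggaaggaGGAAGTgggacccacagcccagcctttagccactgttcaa
Ctsg (chr14:56102575-56102824, minus strand): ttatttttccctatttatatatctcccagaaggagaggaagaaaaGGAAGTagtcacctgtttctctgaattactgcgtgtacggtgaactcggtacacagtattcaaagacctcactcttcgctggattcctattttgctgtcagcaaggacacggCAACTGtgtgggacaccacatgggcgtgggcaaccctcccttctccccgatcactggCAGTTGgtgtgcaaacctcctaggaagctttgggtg
GGAAGT was present in 5 of the 6 promoters (Mpo, Elane, Prtn3, Ctsg and Ms4a3), against 19.7% of 32817 promoters in the table. CAACNG was present in 4 of the 6 (Elane, Prtn3, Ctsg and Nkg7), against 29.3% of all. In Elane and Prtn3 the CAACNG core begins at base -51 and -56 from the RefSeq start and does not lie wholly in the printed stretch, and each has TATAA on the sense strand at -31 and -32 (16.0% of all promoters have TATAA on that strand). Part of a C/EBP site, GCAAT, was in the Elane and Mpo windows (23.1% of all promoters). The windows of Ctsg and Nkg7 held the RUNX core TGTGGT, which 14.0% of all promoters have. The core of GATA factors, GATAAG, was found in none of the 6 windows and in 6.55% of all promoters. A match describes these letters only.

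In levels, the 7 genes spanned a wide range in the mock cells. Mpo led with 1863 and 1325 RPKM in mock libraries 1 and 2, which made it the 9th and the 10th most abundant gene of those libraries. Elane followed with 702 and 525, Ctsg with 463 and 339, and Prtn3 with 393 and 338. Ctsg and Prtn3 overlapped, so their order is not set. Ms4a3 at 83.5 and 62.0 and Nkg7 at 87.7 and 47.1 also overlapped, and Prss57 was lowest at 17.9 and 12.2. Together the 7 genes made up 1.52% and 1.14% of all RPKM in the mock libraries. The share was 1.89% and 2.07% for preleukemia and 0.761% and 0.763% for leukemia. The summed share was thus highest in both preleukemia libraries and lowest in both leukemia libraries.

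**Figure D1:**
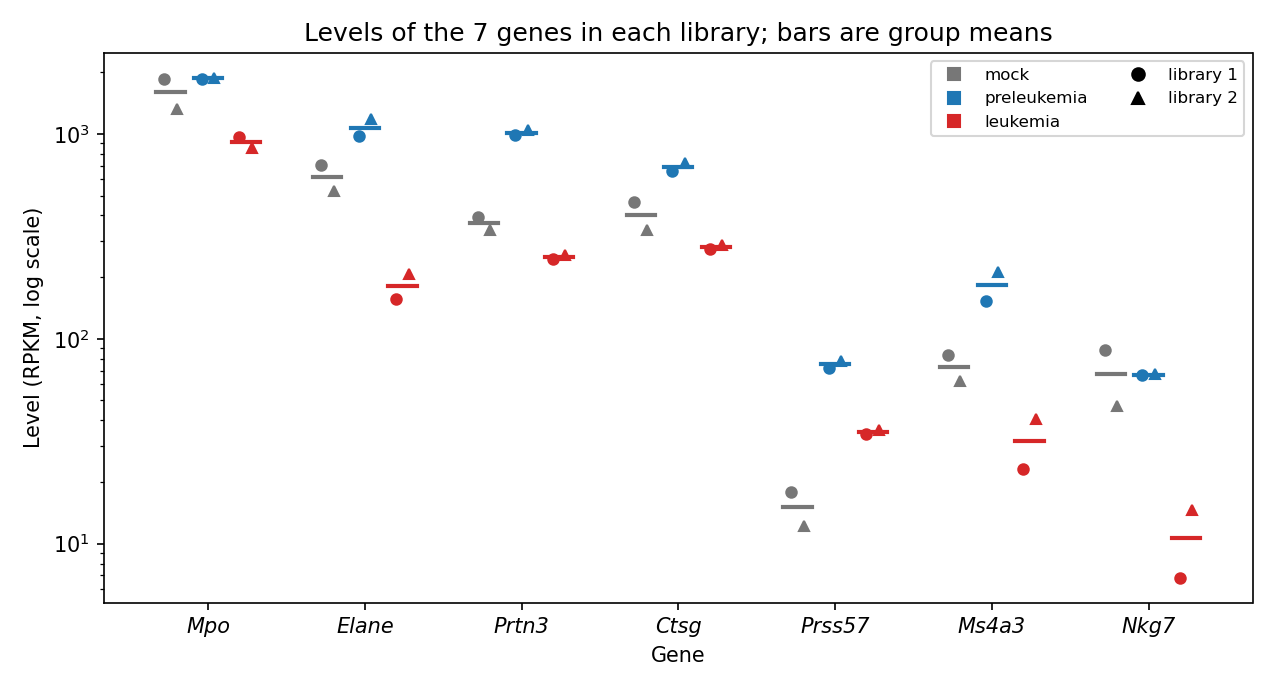
Level of each gene in RPKM on a log axis, for mock (grey), preleukemia (blue) and leukemia (red); circles are library 1, triangles library 2 and bars the group mean of 2 libraries. Both leukemia libraries lie under both preleukemia libraries for every gene, and Prss57 is the gene whose leukemia libraries (34.2 and 36.0) lie above mock (17.9 and 12.2).

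Preleukemia was set against mock at the same 4 weeks, to ask which of these genes differ before leukemia. Of the 7 genes, 5 rose, none fell and 2 did not pass. Over all tested genes 19.5% were called in this comparison, 13.5% as higher and 6.02% as lower, with 1480 higher and 660 lower calls. The split was 1241 to 875 after TMM-like scaling and 1180 to 1052 after quantile normalization. The median log2 fold change was 0.82 over the 7 genes and 0.05 over all tested genes. Groups that did not overlap were seen for 5 of the 7, all higher, and for 62.7% of all tested genes (37.2% higher and 25.5% lower). The 7 genes did not move as 1 block: the protease genes and Ms4a3 were called higher, and the peroxidase gene and Nkg7 were not.

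Mpo, the myeloperoxidase gene, was at 1857 and 1874 RPKM in preleukemia, between or just above the mock values of 1863 and 1325. The groups overlapped, and the log2 fold change was 0.25 (SE 0.18, 95% interval -0.18 to 0.68, adjusted p = 0.366). Preleukemia libraries were closely alike for this gene while the mock pair differed 1.41-fold.

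Prss57, which encodes neutrophil serine protease 4 with a specificity for arginine, was at 72.0 and 78.3 RPKM in preleukemia against 17.9 and 12.2 in mock. Both preleukemia libraries lay well above both mock libraries, a ratio of means of 4.99, and the log2 fold change of 2.27 (SE 0.17, adjusted p = 0.000808) was the largest of the 7. Prtn3, proteinase 3, was at 988 and 1041 RPKM in preleukemia, 2.77 times its mock mean of 366 ± 38.9 (SD, n = 2), with no overlap. Its log2 fold change was 1.47 (SE 0.11, adjusted p = 0.000922). Prss57 and Prtn3 were called higher under all 16 alternative settings, with log2 fold changes of 2.01 to 2.52 and 1.35 to 1.58.

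Elane, neutrophil elastase, was at 972 and 1176 RPKM in preleukemia against 702 and 525 in mock, with no overlap. The log2 fold change of Elane was 0.82 (SE 0.20, adjusted p = 0.0340), and after quantile normalization it did not pass (0.59, adjusted p = 0.0677). Ctsg, cathepsin G, was at 656 and 722 RPKM against 463 and 339 in mock, also without overlap (0.80, SE 0.16, adjusted p = 0.0185). The rises of Elane and Ctsg were smaller than that of Prss57: their 95% intervals (0.34 to 1.29 and 0.41 to 1.18) end below that of Prss57 (1.86 to 2.67).

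Among the markers, Ms4a3, a 4-span membrane protein found on granulocyte-monocyte progenitors, was at 153 and 211 RPKM in preleukemia against 83.5 and 62.0 in mock (log2 fold change 1.31, SE 0.29, adjusted p = 0.0233). The 2 preleukemia libraries lay above both mock libraries. Nkg7, a granule membrane protein shared by cytotoxic lymphocytes and myeloid progenitors, was at 66.7 and 67.2 RPKM, inside the mock range of 47.1 to 87.7 (0.06, 95% interval -0.83 to 0.95, adjusted p = 0.928). That interval is wide, and the mock pair differed 1.86-fold for Nkg7.

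Most fits that leave out a library held fewer calls over all genes too, but the fit without mock library 1 held more. Without preleukemia library 1, Elane, Ctsg and Ms4a3 kept log2 fold changes of 0.95, 0.86 and 1.54 but were not called (adjusted p = 0.0867, 0.0750 and 0.0640), and 650 of all genes were called in place of 2140. Without preleukemia library 2 they stood at 0.68, 0.73 and 1.08 (adjusted p = 0.200, 0.131 and 0.159), with 463 of all genes called. Without mock library 2, Elane and Ms4a3 were at 0.61 and 1.10 and not called (adjusted p = 0.111 and 0.0801), with 1811 of all genes called. Of the 7 genes 2, 2 and 3 were called in these fits. Without the filter on low values, where more genes are tested, the same 3 genes were not called either (adjusted p = 0.119, 0.0791 and 0.0825).

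**Figure D2:**
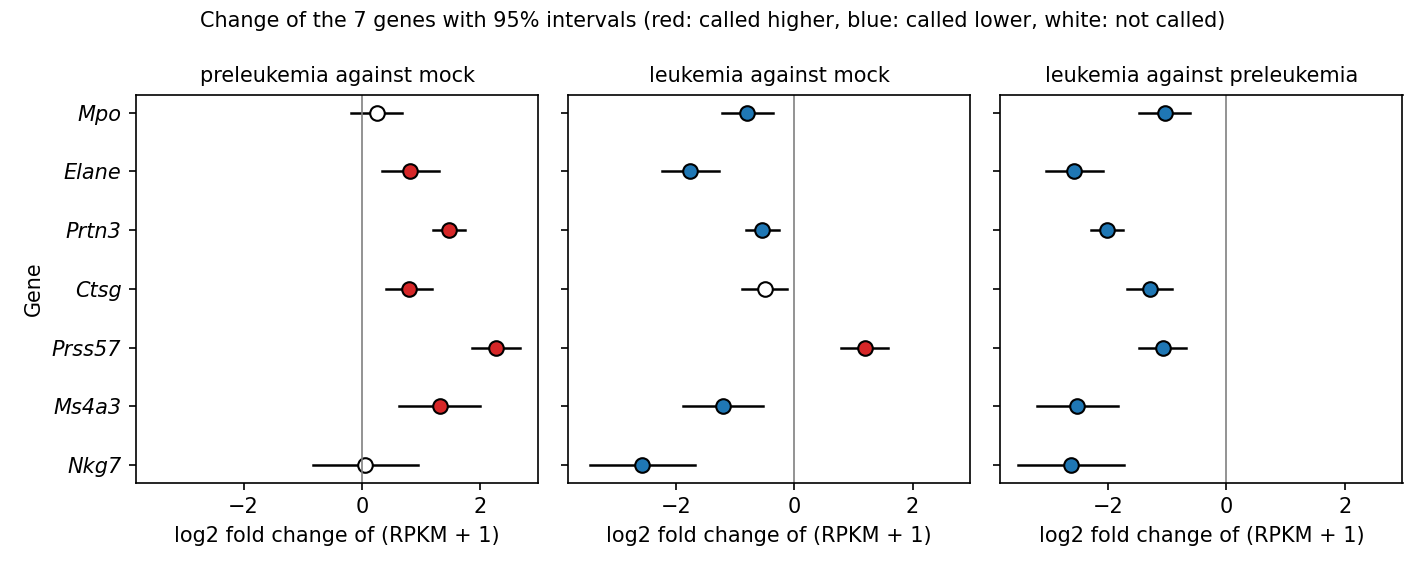
Log2 fold change of each gene on the log2(RPKM + 1) scale with its 95% interval, in the 3 comparisons; red is called higher, blue called lower and white not called (limma adjusted p under 0.05). In leukemia against preleukemia all 7 points lie left of 0, between -2.62 for Nkg7 and -1.04 for Mpo.

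Leukemia was then set against preleukemia, with Evi1-GFP in both. All 7 genes fell and none rose, where 18.3% of all tested genes were called, 13% as lower and 5.27% as higher (1428 and 578 genes). After quantile normalization 966 genes were called higher and 937 lower, and after TMM-like scaling 799 and 1103, with 7 of the 7 called lower in both. The median log2 fold change was -2.01 over the 7 genes and -0.09 over all tested genes. Leukemia libraries lay below preleukemia libraries for 7 of 7. Over all tested genes 70.7% did not overlap, 46% lower and 24.7% higher.

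Elane showed the largest fall among the proteases, to 156 and 207 RPKM in leukemia, 5.92-fold below its preleukemia mean (log2 fold change -2.57, SE 0.20, adjusted p = 0.00139). Prtn3 fell to 245 and 257 RPKM, 4.04-fold below preleukemia (-2.01, SE 0.11, adjusted p = 0.000502). Ctsg fell to 273 and 288 RPKM (-1.29, SE 0.16, adjusted p = 0.00422). The leukemia pair was 1.05-fold apart for Prtn3 and for Ctsg, and 1.33-fold apart for Elane. For all 3 genes both leukemia libraries lay well below both preleukemia libraries.

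Mpo fell less, to 967 and 851 RPKM from 1857 and 1874, a 2.05-fold difference (log2 fold change -1.04, SE 0.18, adjusted p = 0.0119; -0.57 and adjusted p = 0.0401 after quantile normalization). It remained among the most abundant transcripts, the 12th and the 16th in the leukemia libraries, while Elane moved from the 18th and the 14th place in preleukemia to the 163rd and the 111th. Prss57 fell to 34.2 and 36.0 RPKM (-1.08, SE 0.17, adjusted p = 0.00849), which was also a smaller fall than that of Elane. The 95% interval of Elane (-3.05 to -2.09) does not meet those of Mpo (-1.47 to -0.61) and Prss57 (-1.48 to -0.67).

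Ms4a3 dropped to 23.2 and 40.5 RPKM, 5.73-fold below preleukemia (log2 fold change -2.51, SE 0.29, adjusted p = 0.00326), and Nkg7 to 6.83 and 14.6, 6.24-fold below (-2.62, SE 0.37, adjusted p = 0.00630). Leukemia library 1 was the lower of the pair for both markers, by 1.75-fold for Ms4a3 and 2.14-fold for Nkg7, yet both libraries stayed under every mock and preleukemia value.

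Elane, Prtn3, Ctsg and Ms4a3 were called lower under all 16 alternative settings. Mpo did not pass when any 1 of the 4 preleukemia and leukemia libraries was left out (log2 fold changes of -1.13 to -0.95, adjusted p = 0.0568 to 0.0812) or without the filter on low values (adjusted p = 0.122), and neither did Prss57 without preleukemia library 2 (adjusted p = 0.0805) or leukemia library 1 (adjusted p = 0.0653), nor Nkg7 without preleukemia library 2 (adjusted p = 0.0556). Prss57 then stood at -1.02 and -1.04 and Nkg7 at -2.61. Without preleukemia library 2, 4 of the 7 genes and 404 of all genes were called, in place of 2006.

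Against mock, leukemia cells showed lower levels for most of the set and a higher level for 1 gene. Of the 7 genes, 5 fell (Mpo, Elane, Prtn3, Ms4a3 and Nkg7), Prss57 rose and Ctsg did not pass, where 25.6% of all tested genes were called, 13.5% as lower and 12.1% as higher. Groups did not overlap for 7 of the 7 (6 lower and 1 higher), and for 65.4% of all tested genes (35.5% lower and 30% higher). The median log2 fold change was -0.79 over the 7 genes and -0.04 over all. This comparison shares its libraries with the other 2, so the 3 sets of values are not independent.

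Nkg7 had the largest difference, 6.29-fold below its mock mean of 67.4 ± 28.7 RPKM (SD, n = 2), with a log2 change of -2.56 (adjusted p = 0.00456), and Elane was 3.38-fold below mock (-1.75, adjusted p = 0.00203). Both were called under all 16 alternatives. Ms4a3 was 2.28-fold below mock (-1.20, adjusted p = 0.0245) and Mpo 1.75-fold (-0.79, adjusted p = 0.0219). Prtn3, at 245 and 257 against 393 and 338 RPKM, showed a small fall (-0.54, SE 0.11, adjusted p = 0.0176). Ctsg lay below mock in both libraries but did not pass (-0.50, 95% interval -0.88 to -0.11, adjusted p = 0.0636). Ctsg was at -0.72 without mock library 2, where it passed (adjusted p = 0.0144), and at -0.27 without mock library 1 (adjusted p = 0.156).

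Prss57 was the exception in direction. At 34.2 and 36.0 RPKM it was 2.33-fold above mock (log2 fold change 1.19, SE 0.17, adjusted p = 0.00407), and it was called higher under all 16 alternatives, with log2 fold changes of 0.93 to 1.45. The calls of Mpo, Prtn3 and Ms4a3 did not hold in every fit. Without leukemia library 1 their log2 fold changes were -0.88, -0.50 and -0.81 (adjusted p = 0.0671, 0.105 and 0.101), and 1005 of all genes were called in place of 2809. Without leukemia library 2, Mpo and Prtn3 were at -0.70 and -0.57 (adjusted p = 0.122 and 0.0826), with 980 of all genes called. Without mock library 1, where 3697 of all genes were called, Mpo and Ms4a3 were at -0.55 and -0.99 and not called (adjusted p = 0.0606 and 0.0708). Of the 7 genes 3, 4 and 4 were called in these fits. Without the filter on low values Mpo, Prtn3 and Ms4a3 were not called (adjusted p = 0.172, 0.0796 and 0.0803), and after quantile normalization Mpo was at -0.49 (adjusted p = 0.0468).

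Ratios between genes of 1 library do not change when all its values are scaled by a single factor, though quantile normalization can change them. They show how the mix of granule transcripts differed. Elane stood at 37.7% and 39.6% of Mpo in the mock libraries, at 52.4% and 62.8% before leukemia, and at 16.1% and 24.4% in leukemia, 3 ranges that do not overlap. Prtn3 was at 21.1% and 25.5% of Mpo in mock, 53.2% and 55.6% before leukemia and 25.4% and 30.2% in leukemia, where the leukemia values met the mock range. Prtn3 therefore stood below Elane in mock (56.0% and 64.4% of it), near it in preleukemia (102% and 88.5%) and above it in leukemia (158% and 124%). The ratio of Prtn3 to Elane was thus higher in preleukemia than in mock, and highest in leukemia. Which of them stood above the other depends on the gene lengths behind the RPKM, and other lengths were not tested.

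Prss57 was at 0.960% and 0.924% of Mpo in mock, 3.88% and 4.18% before leukemia and 3.53% and 4.23% in leukemia, so that both Evi1 groups shared 1 range well above the mock ratio (means 0.942%, 4.03% and 3.88%). Ctsg kept nearly the same ratio to Elane in mock (66.0% and 64.5%) and in preleukemia (67.5% and 61.4%), and in leukemia it stood at 176% and 139%. With 2 libraries against 2, an exact permutation test of such a ratio cannot give a two-sided p below 0.333, and no test of the ratios was made.

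**Figure D3:**
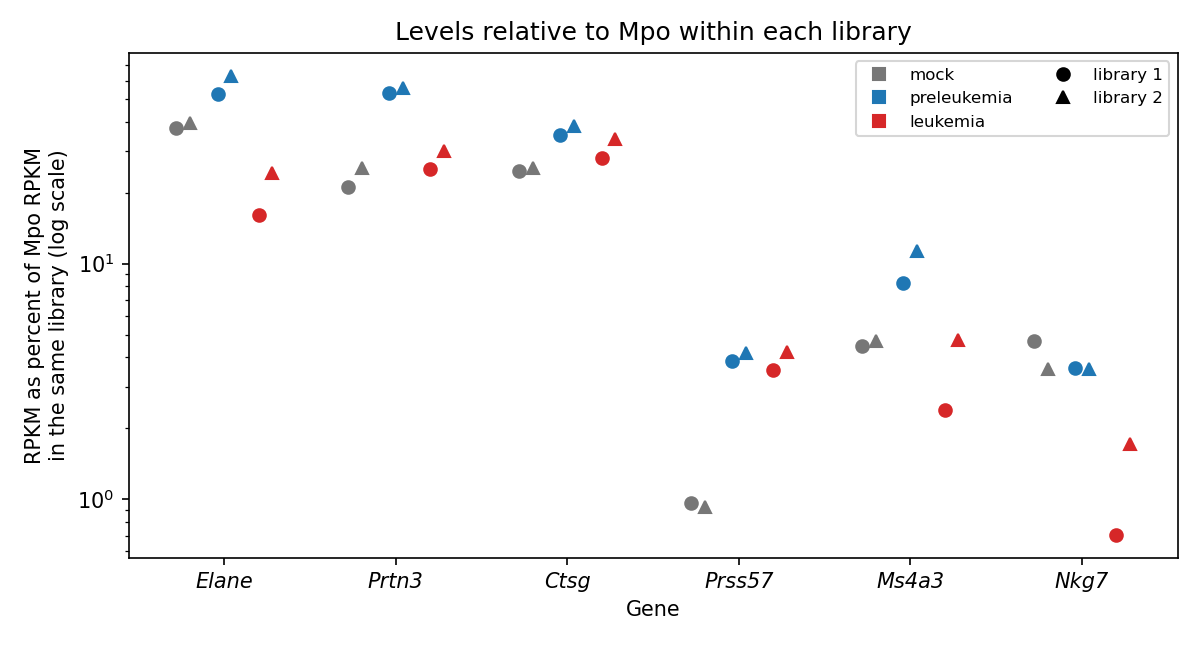
RPKM of 6 genes as a percent of the Mpo RPKM of the same library, on a log axis; colours are groups, circles library 1 and triangles library 2. Elane is lowest relative to Mpo in leukemia (16.1% and 24.4%), and Prss57 stands near 4% in all 4 Evi1 libraries and under 1% in mock.

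Genes that process and pack granule proteins had small median changes. Among all tested genes 13.5% were called higher and 6.02% lower in preleukemia against mock. In leukemia against preleukemia these shares were 5.27% higher and 13% lower. Of 13 such genes 1 rose in preleukemia against mock, none fell and 12 did not pass, with a median log2 fold change of 0.33; without mock library 1, 5 of 13 were called higher. The gene that rose was Lyst, a regulator of granule size that is mutated in Chediak-Higashi syndrome, from 5.79 and 7.09 to 23.6 and 32.5 RPKM (1.95, adjusted p = 0.00136). In leukemia against preleukemia 4 of 13 fell and 9 did not pass (median -0.29). They were Lyst (-0.85, adjusted p = 0.0197), Pdia3, a disulfide isomerase (-0.77, adjusted p = 0.00816), Srgn, the serglycin core protein that binds proteases in the granule (-0.47, adjusted p = 0.0308), and Ctsc, the cathepsin that activates them (-0.55, adjusted p = 0.0455). Ctsc, Srgn and Pdia3 did not pass without any 1 preleukemia or leukemia library (adjusted p = 0.172 to 0.231, 0.106 to 0.200 and 0.0537 to 0.0642), and Lyst not without preleukemia library 2 (-0.63, adjusted p = 0.133) or either leukemia library (adjusted p = 0.134 and 0.0675), so that none of the 13 was called without preleukemia library 2 or either leukemia library and 1 (Lyst) without preleukemia library 1. After quantile normalization Ctsc and Srgn were lost too (adjusted p = 0.0940 and 0.151). Ctsc was at 5.97 to 9.73 RPKM over all 6 libraries, far under the levels of Elane, Prtn3 and Ctsg. Prss57 was nearer to it, at 17.9 and 12.2 RPKM in mock.

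Inhibitors of these proteases were measured with 7 of 10 genes tested. Cst7, cystatin F, an inhibitor of cathepsin C, was at 60.9 and 43.5 RPKM in mock, at 0.360 and 0.281 in preleukemia and at 0.193 and 0.465 in leukemia. It met the filter on low values through the mock libraries alone, so its values are a description with no test. None of the other 6 tested inhibitors was called in preleukemia against mock with all libraries. This did not hold without mock library 1. Slpi, a secreted inhibitor of elastase and cathepsin G, stood at 23.7 and 28.3 RPKM in mock and at 20.6 and 22.4 in preleukemia, and in leukemia at 6.82 and 7.12, 3.09-fold below preleukemia (adjusted p = 0.00149). Serpinb1a, an intracellular inhibitor of elastase, proteinase 3 and cathepsin G, followed the proteases in leukemia against preleukemia, from 59.4 and 77.8 to 28.8 and 37.9 RPKM (-1.02, adjusted p = 0.0237), but its call was lost when preleukemia library 1 (adjusted p = 0.0604), preleukemia library 2 (-0.83, adjusted p = 0.164) or leukemia library 1 (-0.83, adjusted p = 0.145) was left out.

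Other primary granule contents, many shared with lysosomes, were mostly higher before leukemia. Beside 13.5% of all tested genes called higher, 10 of 13 tested genes of this list rose in preleukemia against mock, none fell and 3 were not called. Their median was 0.64, and 5 of 13 were called without preleukemia library 1 and 4 without library 2. Lyz2, the main myeloid lysozyme, rose from a mock mean of 67.5 ± 13.4 RPKM (SD, n = 2) to 1356 and 2024 RPKM (4.61, adjusted p = 0.000187) and stood at 293 and 348 in leukemia. Reads of Lyz2 and its near-identical copy Lyz1 may be split in ways not known here. Lyz1, counted among the 13, was at 0.037 and 0.039 RPKM in mock and at 1.03 and 1.83 in preleukemia. It met the filter on low values through preleukemia alone, so its values are a description. Cd63, a granule membrane tetraspanin, rose from 52.2 and 39.6 to 134 and 146 RPKM (1.60, adjusted p = 0.00180), and Man2b1, a lysosomal mannosidase, by 1.27 (adjusted p = 0.00289). In leukemia against preleukemia 4 of the 13 fell, Cd68 rose and 8 did not pass; without preleukemia library 2 there were 2 that fell and none that rose, and without mock library 1 or 2 there were 6 that fell. Cd63 and Man2b1 were at 99.2 and 120 and at 78.5 and 101 RPKM in leukemia, and did not pass (adjusted p = 0.171 and 0.864). Lyz2 fell (-2.37, adjusted p = 0.00224). Among all tested genes 13% were called lower and 5.27% higher in leukemia against preleukemia.

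Transcription factors known to act on these genes were measured with 11 of 12 tested. In preleukemia against mock 4 rose, 1 fell and 6 did not pass, where 13.5% of all tested genes were called higher and 6.02% lower. Gfi1, a repressor needed for granulocyte maturation, rose from 14.9 and 8.98 to 36.0 and 50.1 RPKM (1.79, adjusted p = 0.00774) and stood at 9.59 and 14.0 in leukemia, inside the mock range. Cebpe, the C/EBP factor of later granule stages, rose by 2.78 (adjusted p = 0.0153), and Spi1, which encodes PU.1, by 0.83 (adjusted p = 0.00869). Without preleukemia library 2, where 463 of all genes were called in place of 2140, none of the 11 was. Gfi1, Cebpe and Spi1 then stood at 1.55, 2.45 and 0.74 (adjusted p = 0.0693, 0.115 and 0.0872). Cebpe was also not called without mock library 2 (adjusted p = 0.0536) or preleukemia library 1 (adjusted p = 0.0575). Cebpa, needed to form granulocyte-monocyte progenitors, was at 39.6 to 72.7 RPKM and Myb at 164 to 250 RPKM over all libraries, and neither passed in any of the 3 comparisons with all libraries. Without mock library 1 Cebpa was called higher in preleukemia and in leukemia against mock (0.82 and 0.62, adjusted p = 0.00512 and 0.0105). In leukemia against preleukemia 3 of the 11 fell (Cebpd, Gfi1 and Klf4), Runx1 rose and 7 did not pass. The shares of all tested genes were 13% lower and 5.27% higher. The fall of Gfi1 (-1.78, adjusted p = 0.00843) was -1.55 without preleukemia library 2 and -1.53 without leukemia library 1 and then not called (adjusted p = 0.0745 and 0.0591), and without either of these libraries 1 of the 11 was called lower, against 5 without mock library 1 or 2.

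Of 18 other markers of granulocyte-monocyte progenitors, 6 rose in preleukemia against mock, 5 fell and 7 did not pass, so this list did not share 1 direction; without preleukemia library 2 there were 4 higher and 3 lower. Clec12a, a myeloid lectin receptor, rose from 25.0 and 26.9 to 105 and 110 RPKM (2.01, adjusted p = 0.000231) and was at 85.6 and 98.2 in leukemia. Anxa3, an annexin of neutrophil granules, fell from 41.3 and 37.5 to 16.8 and 17.9 (-1.14, adjusted p = 0.00290) and to 3.46 and 4.43 RPKM in leukemia. In leukemia against preleukemia 7 of 18 fell and 2 rose (median -0.60), and without preleukemia library 2 there were 4 that fell and none that rose, and without mock library 1 or 2 there were 9 and 4. Plac8, a myeloid progenitor gene, fell from 448 and 449 to 269 and 261 RPKM (-0.76, adjusted p = 0.00422). The 7 primary granule genes all fell in that comparison, with a median of -2.01. Among all tested genes 13.5% were called higher and 6.02% lower in preleukemia against mock. In leukemia against preleukemia these shares were 5.27% higher and 13% lower.

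Genes of the later secondary and tertiary granules, which follow the primary granule stage, were all at or under 1.75 RPKM in mock and met the filter through the Evi1 groups, so their counts are a description. In preleukemia against mock 7 of 10 were called higher (median 4.54), and 5 of 10 fell in leukemia against preleukemia (median -2.82), with none called lower without leukemia library 1 and 1 without preleukemia library 2. Their summed level was 3.45 and 7.53 RPKM in mock, against 505 and 1869 RPKM for preleukemia and 138 and 324 RPKM for leukemia. Preleukemia library 2 held far more of them than library 1. All 7 primary granule genes were also higher in preleukemia library 2, by 1.01-fold to 1.38-fold. The part of maturing neutrophils in the rise of the primary granule genes was not tested, and in these bulk libraries fewer cells of a type and less RNA per cell cannot be told apart.

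**Figure D4:**
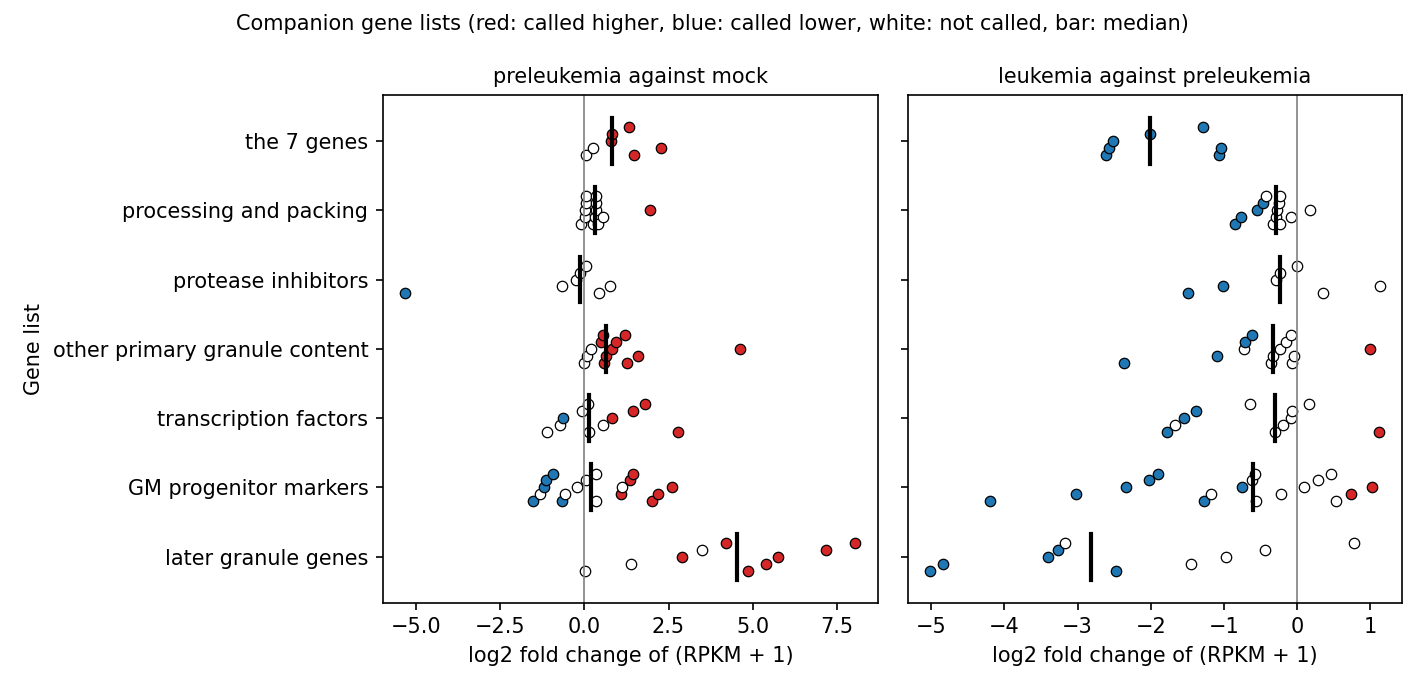
Log2 fold change of every tested gene of the set and of 6 companion lists, for preleukemia against mock (left) and leukemia against preleukemia (right); red is called higher, blue called lower, white not called, and the bar is the list median. The 7 genes have a median of 0.82 on the left panel and all lie below 0 on the right panel (median -2.01), and the later granule genes spread widest.

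Markers of other cells were read beside the genes they could touch. Nkg7 is also a gene of cytotoxic lymphocytes: of 13 markers of those cells 1 (Gzmb) reached the level tested, with 12.5 and 19.7 RPKM in mock, 11.5 and 8.02 before leukemia, and 0.638 and 0.359 in leukemia. The whole list summed to 14.2 and 25.8 RPKM in mock, to 12.3 and 9.15 before leukemia, and to 1.44 and 1.37 in leukemia. Cd3e was at 0 in both mock libraries, Prf1 and Ncr1 at 0 in all 4 Evi1 libraries, and the other markers beside Gzmb at or under 2.32 RPKM. Nkg7 was at 47.1 to 87.7 RPKM in mock. Gzmb met the filter on low values through mock and preleukemia. Its fall in leukemia (-3.49 against mock and -2.83 against preleukemia) is thus a description, and Nkg7 fell in both comparisons too. The part of cytotoxic lymphocytes in the Nkg7 values was not tested. Mast cell and basophil markers, 9 in all, summed to 172 and 121 RPKM in mock, 77.6 and 64.4 before leukemia and 74.4 and 73.5 in leukemia, with Cma1 and Tpsb2 at 0 in every library. Gata2, which progenitors share, made up 54.8 to 55.9 RPKM of the leukemia sums. Cpa3, a mast cell carboxypeptidase gene, was at 41.2 and 20.3 RPKM in mock, 5.62 and 4.26 in preleukemia and under 1 in leukemia. In leukemia against mock 6 of the 7 markers tested were called lower, where 13.5% of all tested genes were. Hdc and Prss34, counted among the 7, met the filter through mock alone, so their values are a description. Mcpt8, a basophil protease gene that lies 14.6 kb from Ctsg, fell in preleukemia (-0.79, adjusted p = 0.00362) where Ctsg rose.

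Erythroid markers summed to 386 and 160 RPKM in mock, 201 and 121 before leukemia and 4.86 and 19.7 in leukemia. Monocyte and macrophage markers summed to 124 and 148, 173 to 188, and 153 to 161 RPKM in the 3 groups. Their members differed in direction: in leukemia against mock 3 of 6 were called lower, among them Mpeg1 and Ccr2, and Ly86 higher (1.08, adjusted p = 0.00537). Among all tested genes 13.5% were called lower and 12.1% higher there. Megakaryocyte markers summed to 34.3 and 32.9 RPKM in mock, 67.7 and 48.8 before leukemia and 3.62 and 12.2 in leukemia. Stem cell markers summed to 11.3 and 13.4 RPKM in mock and to 0.616 and 1.98 in leukemia, and B-lymphoid markers to 32.8 and 34.2, 3.84 and 6.05, and 0.271 and 0.164 RPKM in the 3 groups. Eosinophil markers set the leukemia libraries apart, at 3.74 and 170.5 RPKM, against 43.8 and 28.2 in mock and 85.0 and 85.5 in preleukemia. The part of such shifts between cell types in the values of the 7 genes was not tested.

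Of the 2 nearest genes on each side, those tested were set beside each call of the 7 genes. In preleukemia against mock 2 of 8 such pairs were called in the same direction, 2 in the opposite one and 4 not at all. In leukemia against mock the counts were 6, 1 and 6 of 13, and in leukemia against preleukemia 1, 0 and 13 of 14. Ptbp1 was counted beside both Elane and Prtn3, so the pairs are not independent. Over all tested genes 19.5%, 25.6% and 18.3% were called in either direction in these comparisons. In leukemia against mock 13.5% were called lower and 12.1% higher. Cfd, which encodes complement factor D and lies 2.64 kb beyond Elane, was at 0 to 0.751 RPKM in all libraries while Elane was at 156 to 1176. Lpo, the lactoperoxidase gene 2.01 kb beyond Mpo, was at 0.258 to 1.21 RPKM and passed in no comparison. Palm, a membrane-bound phosphoprotein gene 2.61 kb from Prss57, rose in preleukemia against mock (0.86, adjusted p = 0.00278) and in leukemia against mock (0.71, adjusted p = 0.00359), the directions in which Prss57 rose. Ms4a2, the gene of an IgE receptor subunit 5.78 kb from Ms4a3, fell in preleukemia (-1.41, adjusted p = 0.0160), where Ms4a3 rose, and in leukemia against mock (-2.30, adjusted p = 0.00222), where Ms4a3 fell. On the other side of Ms4a3, Oosp1 was at 0.476 and 0.407 RPKM in mock and at 2.25 and 1.57 in preleukemia. Oosp1 met the filter on low values through the Evi1 groups alone, so its call, counted among the 2 of 8 above, is a description. Ptbp1 and Med16, beside Prtn3 and Elane, were called lower in leukemia against mock (-0.47 and -0.35, adjusted p = 0.0180 and 0.0448), as were both proteases. On the Nkg7 side, Etfb, an electron transfer flavoprotein gene 5.83 kb away, fell in leukemia against mock (-0.99, adjusted p = 0.00265) and against preleukemia (-1.38, adjusted p = 0.00200), as Nkg7 did.

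Patterns over the 6 libraries were compared with those of 4753 other genes with a mean of at least 10 RPKM, by Pearson's r of log2(RPKM + 1), as a description in which the points share libraries and groups. Within the set, Elane correlated with Ms4a3 at r = 0.97, Prtn3 with Ctsg at 0.98 and Mpo with Elane at 0.95, while Prss57 stood apart, with r from 0.03 (Nkg7) to 0.69 (Prtn3). Outside the set the most alike were Lman2 for Prtn3 (r = 1.00), Stip1 for Mpo (0.996), Etfb for Elane (0.997), Tuba4a for Ctsg (0.999), Was for Prss57 (0.999), C2cd5 for Ms4a3 (0.995) and Aplp2 for Nkg7 (0.998). For each of the 7 genes, 94 to 171 of the 4753 reached r over 0.95, so such likeness over 6 libraries is common here.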

How the data were processed

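The deposited table gave RPKM for each gene and library, per the file headers 1 column a library; the unit was inferred from the values, since multiplied by GENCODE M21 exon lengths 64.1% to 66.0% of those equal to fewer than 20 reads came within 0.02 of a whole read (4% by chance). Per the submitters' processing notes, CASAVA 1.8.2 and GRCm38 were used, in roles not stated; aligner and annotation: not given in the sources used here. Cells were sorted and libraries made with the NEBNext Ultra kit, per the labels' protocols.

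Values were tested as log2(RPKM + 1) with limma 3.58.1 in R 4.3.3, over genes at 1 RPKM or more in at least 2 libraries. All 6 libraries entered 1 fit of group means with a spread that follows the mean (3 residual and 3.70 prior degrees of freedom), two-sided, Benjamini-Hochberg adjusted over 10958 genes at 0.05. A fold change or log2 value understates changes of low genes; ratios are of mean RPKM. The fit was tested on simulated data. Alternatives were other pseudocounts, filters, scalings, spread estimates, library subsets and a replicate block. The members and lists were chosen with earlier results of these data known. Every one of the 7 genes is named; of companion lists any tested gene may be, first the 4 with the smallest p in a comparison, besides the 2 nearest genes on each side and the most alike patterns. Which of these the text describes, and the motifs, were picked with values and sequences in view. Hbb-b1 and Ebf1 did not match a row by symbol.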

Additional observations from a re-analysis of the deposited data

How the results depend on the processing

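Of 336 values (21 gene comparisons under 16 alternatives), 305 kept their side of the threshold, 30 no longer passed, 1 passed newly and no called change reversed. Nkg7 in preleukemia against mock was not called in any of them, and its log2 fold change ranged from -0.39 to 0.50, so its direction was not kept. Without a filter on low values 2 of the 7 genes were called in preleukemia against mock, 3 in leukemia against mock and 6 in leukemia against preleukemia, where 1302 of all genes were called in place of 2006; more genes are tested then. Fitting only the 4 libraries compared called 1387 and 3419 of all genes in preleukemia against mock and leukemia against preleukemia, in place of 2140 and 2006, with 5 and 7 of the 7 genes. Leaving out each library in turn gave 2 to 5, 3 to 7 and 4 to 7 of the 7 genes in preleukemia against mock, leukemia against mock and leukemia against preleukemia, and 463 to 3766, 980 to 3697 and 404 to 3453 of all genes; the lone library of a group is then assumed to vary like the others. Serpina3f in leukemia against mock moved from 0.46 to -0.58 (adjusted p = 0.0393) without mock library 1 and to 1.50 without mock library 2, and the cause was not tested. Replicate numbers are not said to pair libraries (same-numbered deviations correlated at 0.12, 0.01 and 0.18); the replicate block called 5, 6 and 7 of the 7 genes and 2118, 2932 and 2060 of all genes. The lowest read numbers, those of Nkg7 in leukemia, limit its precision.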
